A study of Mus musculus with 8 samples.

Results

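A set of 10 growth factor genes of tissue repair and vessel growth is described here in macrophages sorted from mouse liver: Vegfa, Vegfb, Hgf, Igf1, Hbegf, Pdgfa, Pdgfb, Pdgfc, Gdf3 and Gdf15. They were chosen by name, with earlier results of these data known, and all 10 were found among 35906 genes with summed counts. The study compared 4 libraries from vehicle-treated mice with 4 from mice given carbon tetrachloride (CCl4), a liver toxin that injures hepatocytes and is used to produce fibrosis. All mice were wild-type BALB/c, and the sources used here give neither their age nor how much CCl4 was given and for how long. After collagenase digestion and a slow spin to remove hepatocytes, live cells positive for CD45 (on all leukocytes) and F4/80 (on macrophages) were sorted. Absence of CD31 (on endothelium) is named as a criterion in the series' design text but not in the sorting protocol. Nothing says that each library came from its own mouse, so the p-values reflect spread among these libraries alone, and that spread may be technical.

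Growth factors of this kind are secreted, or shed from the cell surface, and act on receptor tyrosine kinases of neighbouring cells. VEGF proteins act on endothelium, HGF and the EGF-family ligand HB-EGF on hepatocytes and other epithelia, and PDGF proteins on the stellate cells and fibroblasts that lay down scar. IGF-1 is a growth and survival factor, and GDF3 and GDF15 are distant members of the TGF-beta superfamily, the first read by activin receptors and the second by a receptor of the hindbrain.

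Splice forms decide how some of these proteins behave, so the exons compared further on are shown first, from the GENCODE M21 models of mm10. The Vegfa exon belongs to the long forms, which hold heparin and matrix, and is absent from the freely diffusing short form. It is exon 6 of 7 of transcript Vegfa-202 (chr17:46020991-46021122, minus strand), and its 132 bases are a multiple of 3, the length of 44 codons. The Igf1 exon changes the E peptide, the tail that is cut from the IGF-1 precursor. It is exon 4 of 5 in an Igf1 transcript of 159 codons (chr10:87915298-87915349, plus strand), and its 52 bases are not a multiple of 3. In both, capitals mark the exon and lower case the adjoining exon ends. The Pdgfc exon, exon 2 of 7 of Pdgfc-202 (chr3:81131018-81131076, plus strand), is 59 bases long, and its capitals mark an in-frame stop codon.
Vegfa-202 exon 6: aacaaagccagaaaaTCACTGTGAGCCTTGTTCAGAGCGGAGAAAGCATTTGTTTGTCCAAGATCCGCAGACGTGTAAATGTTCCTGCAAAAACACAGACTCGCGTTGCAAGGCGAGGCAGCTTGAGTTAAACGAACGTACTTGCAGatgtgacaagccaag
Igf1 exon 4: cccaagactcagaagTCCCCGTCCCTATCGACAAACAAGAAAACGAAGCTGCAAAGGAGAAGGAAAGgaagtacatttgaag
Pdgfc-202 exon 2: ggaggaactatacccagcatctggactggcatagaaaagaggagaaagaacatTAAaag

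Promoters were found for 7 of the 10 genes in the RefSeq table of build GRCm38.p6; Gdf3, Pdgfb and Hbegf had no entry there. The 250 bases before the start are printed for 3 genes that passed the test, each at the first start the table lists: Hgf (chr5:16553245-16553494, plus strand), Igf1 (chr10:87860861-87861110, plus strand) and Vegfa (chr17:46032378-46032627, minus strand). They were searched on both strands for the hypoxia-response cores ACGTG and GCGTG, the E-box CACGTG, which contains ACGTG, the AP-1 site TGANTCA and the C/EBP-ATF site TGATGNAA. Capitals mark the matches. Of 32851 mouse promoters of the same length, 16.6% hold ACGTG, 28.2% GCGTG, 6.02% CACGTG, 6.75% TGANTCA and 3.45% TGATGNAA. The Hgf window holds 1 GCGTG match (read on the opposite strand), the Igf1 window holds 1 GCGTG and 1 TGANTCA match, and the Vegfa window holds none of the 5 motifs. The printed Igf1 window lies inside the gene, which spans chr10:87858265-87937042 in GENCODE, so its matches are not upstream of the whole gene. The table's other Vegfa start, which lies inside the gene, has 1 ACGTG and 1 GCGTG match in its window (chr17:46025164-46025413, minus strand). The other Hgf start, also inside its gene, has none. These are matches of letters and not binding sites.
Hgf promoter: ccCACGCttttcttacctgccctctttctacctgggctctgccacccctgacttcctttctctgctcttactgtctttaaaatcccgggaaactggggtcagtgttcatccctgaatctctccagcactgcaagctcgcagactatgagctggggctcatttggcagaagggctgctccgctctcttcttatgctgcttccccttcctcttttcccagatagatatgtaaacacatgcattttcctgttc
Igf1 promoter: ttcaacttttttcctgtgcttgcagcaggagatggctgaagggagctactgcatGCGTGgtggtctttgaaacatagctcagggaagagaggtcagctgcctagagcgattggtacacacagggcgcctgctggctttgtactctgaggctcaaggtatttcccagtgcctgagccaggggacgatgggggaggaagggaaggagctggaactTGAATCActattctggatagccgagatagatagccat
Vegfa promoter: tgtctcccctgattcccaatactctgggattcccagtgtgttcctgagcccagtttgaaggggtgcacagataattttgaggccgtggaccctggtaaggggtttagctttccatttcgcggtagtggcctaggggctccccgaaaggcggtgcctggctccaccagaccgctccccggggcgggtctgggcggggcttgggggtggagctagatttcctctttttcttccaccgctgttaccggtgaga

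Library totals ran from 19489104 to 26196063 estimated counts. Vehicle 2 and CCl4 4 had the lowest totals (19686629 and 19489104) and the most genes with a count, 23025 and 23868 against 19265 to 21670 in the other libraries, so values without both are given for the named genes whose call they change. The sorted cells carried macrophage markers, of which 2 of 12 rose (Lyz2 and Cd14) and 1 fell (Aif1). Their summed levels were 29216 to 34814 CPM (counts scaled to library size) in vehicle and 58020 to 78179 in CCl4. A sum gives abundant genes the most weight, and the other 9 markers passed in neither direction. The median log2 fold change of the 12 was 0.02, against -0.03 over all genes tested. Cd14 lost its call without vehicle 2, 3 or 4 or CCl4 1 or 3 (adjusted p in edgeR of 0.0618 to 0.11) and without vehicle 2 and CCl4 4 together (0.0501). Marker levels of other cells and macrophage subtypes also differed between the groups. Of 13 Kupffer cell markers 12 fell (summed 25497 to 40055 against 9275 to 15486 CPM), and of 12 markers of monocyte-derived macrophages 5 rose (419 to 944 against 1242 to 1563 CPM). Endothelial transcripts were present in the sorted cells: of 18 sinusoidal endothelial markers 15 fell and 1 rose (958 to 1529 against 615 to 931 CPM), 8 of 14 neutrophil markers rose (108 to 244 against 252 to 558 CPM), and 8 of 10 mesothelial markers rose (8.46 to 37.8 against 80.1 to 218 CPM). Of 14 stellate cell and fibroblast markers 3 collagens rose and 4 fell (157 to 602 against 196 to 382 CPM). Each marker had a count in at least 1 library, although the neutrophil elastase gene Elane was at 0 in all 4 vehicle libraries. The part of these cells in the results that follow was not tested.

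Vegfa, Hgf and Gdf3 rose with CCl4, and Hbegf and Igf1 fell. Thus 3 of 10 were higher and 2 of 10 lower by edgeR's quasi-likelihood test with Benjamini-Hochberg adjustment at 0.05, where 8.93% of the 15212 genes tested were higher and 6.26% lower. All 10 passed the filter on low counts, and their median log2 fold change was 0.10, against -0.03 over all genes tested. Libraries of the groups did not overlap for 3 members that were higher (13% of all genes) and for 1 that was lower (9.49%). Because whole sorted samples were sequenced, fewer cells of a type and less RNA per cell cannot be told apart. Levels below are CPM with TMM scaling, as mean ± SD with n = 4 per group unless single libraries are listed, and fold changes are CCl4 over vehicle.

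**Figure D1:**
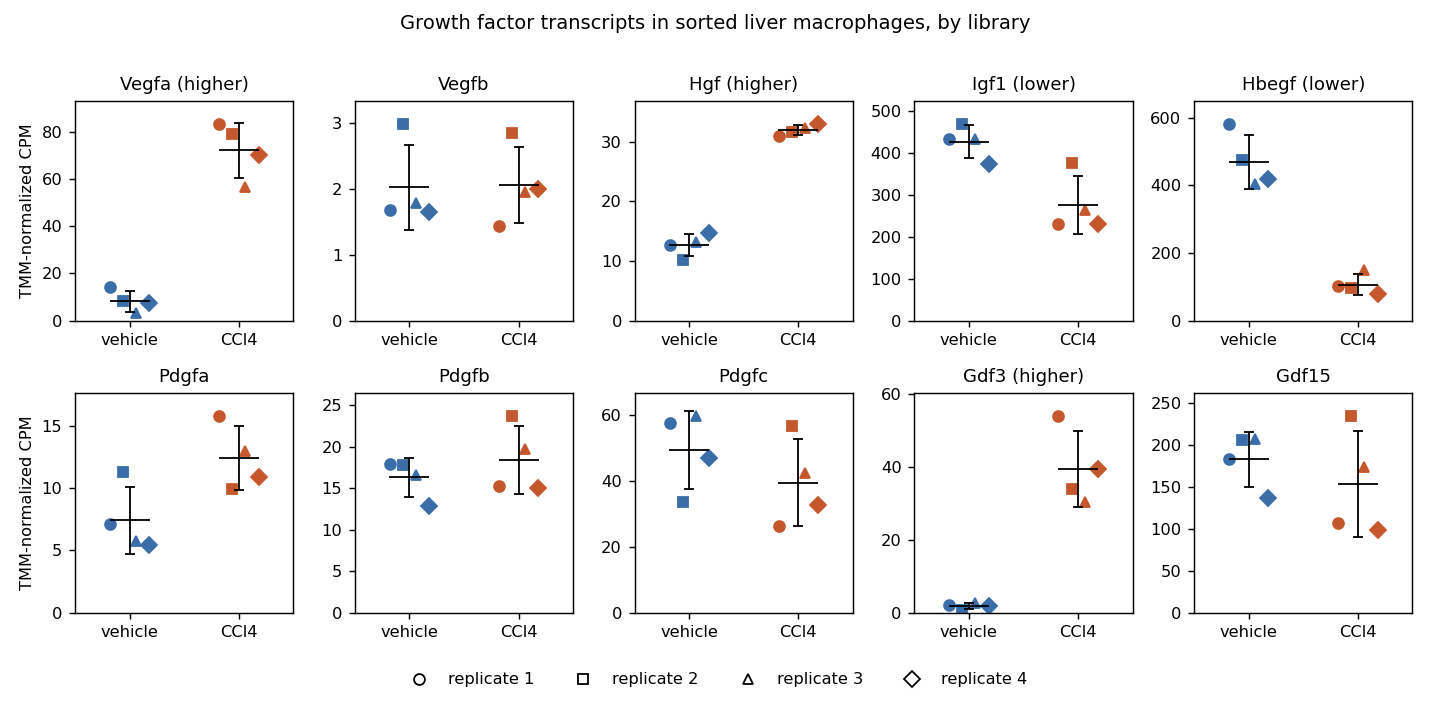
Level of each growth factor in each library (vertical axes in TMM-normalized CPM, starting at 0) for vehicle (blue) and CCl4 (orange); horizontal lines are means and bars are SD, n = 4. The 4 CCl4 libraries lie above every vehicle library for Vegfa, Hgf and Gdf3 and below every one for Hbegf.

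Vegfa, the main signal for new vessels, was low in macrophages of vehicle-treated mice and rose with CCl4. It stood at 14.1, 8.17, 3.05 and 7.32 CPM in vehicle 1 to 4 and at 83.2, 78.9, 56.8 and 70.01 CPM in CCl4 1 to 4. The lowest CCl4 library was far above the highest vehicle library, and among vehicle libraries vehicle 1 was highest and vehicle 3 lowest. The means were 8.16 ± 4.55 and 72.2 ± 11.7 CPM, a log2 fold change of 3.15 (SE 0.36, adjusted p = 0.000194 in edgeR). Its gene spans chr17:46016993-46032369 on the minus strand, and its counts ran from 76.9 to 2002 per library.

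Vegfb, a relative of Vegfa with a weak effect on vessel growth, was low, with 31 to 72 counts per library. It averaged 2.02 ± 0.64 CPM in vehicle and 2.05 ± 0.58 CPM in CCl4 and missed the threshold (log2 fold change 0.03, SE 0.36, adjusted p = 0.97 in edgeR). The groups overlapped, and vehicle 2 (2.97 CPM) and CCl4 2 (2.84 CPM) were the highest of their groups. Pgf, the placental growth factor that binds the receptor Flt1, rose from 0.366 ± 0.16 to 1.44 ± 0.60 CPM (log2 fold change 1.97, SE 0.53, adjusted p = 0.0277 in edgeR). That call ended without vehicle 3, vehicle 4, CCl4 1 or CCl4 2 (adjusted p in edgeR of 0.0801 to 0.114).

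All 3 receptor kinases that read VEGF fell by edgeR, though none kept its call in every setting, while a co-receptor rose. Flt1, a high-affinity VEGF receptor, fell from 8.59 ± 1.15 to 4.0 ± 0.79 CPM (-1.10 on the log2 scale, SE 0.22, adjusted p = 0.0055 in edgeR), but with length-scaled TPM counts it had -0.49 (adjusted p = 0.567 in edgeR) and with limma on log2(FPKM + 1) 0.093. Kdr, the main signalling receptor for VEGF, fell from 68.2 ± 26.7 to 30.0 ± 9.02 CPM (-1.19, SE 0.30, adjusted p = 0.0199 in edgeR), and its libraries overlapped. Kdr lost its call without vehicle 1, vehicle 4, CCl4 2 or CCl4 4 (adjusted p in edgeR of 0.0525 to 0.0639). It also did not pass in the 3 limma fits on FPKM (adjusted p in limma of 0.06 to 0.17). Flt4, the receptor of lymphatic vessels and of VEGF-C, was named after its values were seen and fell from 15.3 ± 3.91 to 5.78 ± 1.62 CPM with no overlap (-1.40, SE 0.25, adjusted p = 0.00253 in edgeR). The co-receptor Nrp2 rose from 18.9 ± 4.05 to 63.7 ± 18.5 CPM (1.75, SE 0.23, adjusted p = 0.000415 in edgeR), while its relative Nrp1 was at 123 ± 36.7 and 154 ± 25.8 CPM and missed the threshold (adjusted p = 0.394 in edgeR). Kdr and Flt4 are also among the 18 endothelial markers, 15 of which fell in the same libraries.

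Vegfa is known as a target of the hypoxia-inducible factors, and of 25 tested hypoxia response genes 7 rose and 2 fell, with a median log2 fold change of 0.30. Ndrg1, a growth-arrest gene induced by low oxygen, rose from 7.15 ± 2.25 to 69.99 ± 25.8 CPM (log2 fold change 3.29, SE 0.31, adjusted p = 5.98e-05 in edgeR). Egln3, an oxygen-sensing prolyl hydroxylase, and Slc2a1, the glucose transporter GLUT1, had log2 fold changes of 2.88 (SE 0.58) and 1.79 (SE 0.23). Without vehicle 4 the value of Egln3 was 3.86, and with limma it was 1.28 on log2(FPKM + 0.1) and 0.24 on log2(FPKM + 1). P4ha2, a collagen prolyl hydroxylase also induced by low oxygen, fell by 1.74 on the log2 scale (SE 0.17, adjusted p = 8.44e-05 in edgeR). Hif1a itself was at 67.5 ± 20.5 and 112 ± 22.2 CPM with overlapping libraries and missed the threshold (log2 fold change 0.73, SE 0.24, adjusted p = 0.0582 in edgeR). It passed in 8 of 20 other settings: with DESeq2 (0.0177), with no filter on low counts, with a filter of at least 1 CPM in 4 libraries and with upper-quartile scaling (adjusted p in edgeR of 0.019, 0.0455 and 0.0496), without vehicle 1, vehicle 2 or CCl4 4 (adjusted p in edgeR of 0.0383, 0.0489 and 0.0445) and without vehicle 2 and CCl4 4 together (adjusted p = 0.0135 in edgeR). Epas1, which encodes HIF-2 alpha, was at 19.4 ± 3.40 and 22.4 ± 4.30 CPM (adjusted p = 0.509 in edgeR).

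Hgf, the hepatocyte growth factor, rose with very little spread among the CCl4 libraries. It stood at 12.6, 10.2, 13.1 and 14.7 CPM in vehicle 1 to 4 and at 31.0, 31.7, 32.2 and 32.9 CPM in CCl4 1 to 4. No library of 1 group reached those of the other. The means were 12.7 ± 1.87 and 31.9 ± 0.82 CPM, a log2 fold change of 1.34 (SE 0.14, adjusted p = 0.000142 in edgeR; chr5:16553495-16620152, plus strand). Mesothelial and fibroblast cells are also known to make HGF, and the mesothelial markers Lrrn4, Upk1b, Upk3b and Msln rose in the same libraries (log2 fold changes of 5.96, 4.64, 3.98 and 3.80). Lrrn4 had 6.61 without vehicle 4, and Upk3b and Msln had 3.34 and 3.16 without CCl4 3. With limma on log2(FPKM + 0.1), Lrrn4, Upk1b, Upk3b and Msln had 1.91, 2.84, 2.46 and 1.84. On log2(FPKM + 1) they had 0.38, 0.91, 0.76 and 0.37. Among 14 stellate cell and fibroblast markers 3 rose and 4 fell, with a median log2 fold change of -0.39. The part of mesothelial cells and fibroblasts in the Hgf result was not tested.

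Met, the only known receptor of HGF, rose as well, from 1.89 ± 1.04 to 24.2 ± 13.9 CPM (log2 fold change 3.69, SE 0.46, adjusted p = 0.00031 in edgeR). It was highest in CCl4 1 (42.8 CPM) and CCl4 3 (26.5 CPM) and did not overlap between groups, the highest vehicle library being vehicle 2 (3.44 CPM). Without vehicle 2 and CCl4 4 together the log2 fold change of Met was 4.29. With limma it was 2.21 on log2(FPKM + 0.1) and 0.67 on log2(FPKM + 1), so its size depended on the method. HGF is secreted as an inactive chain and cut by serine proteases. The protease genes Plau (urokinase), at 428 ± 96.1 and 459 ± 127 CPM, and Hgfac (HGF activator), at 1.02 ± 0.15 and 0.958 ± 0.13 CPM, missed the threshold (adjusted p in edgeR of 0.825 and 0.913).

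Igf1 was the most abundant member per transcript length and fell with CCl4. It stood at 434, 468, 434 and 373 CPM in vehicle 1 to 4 and at 231, 375, 264 and 230.2 CPM in CCl4 1 to 4. CCl4 2 lay just above vehicle 4, so the groups overlapped in that pair alone. The means were 427 ± 39.7 and 275 ± 68.5 CPM, a log2 fold change of -0.63 (SE 0.18, adjusted p = 0.0368 in edgeR; chr10:87858265-87937042, plus strand). The call rested on most of the libraries: it ended without vehicle 1, 3 or 4 or without CCl4 1, 3 or 4 (adjusted p in edgeR of 0.0568 to 0.116), and without vehicle 2 and CCl4 4 together (adjusted p = 0.0776 in edgeR), with the direction unchanged. Among Kupffer cell markers, Cd163, Fcna, Timd4 and Spic fell in the same libraries (log2 fold changes of -3.26, -2.86, -2.45 and -1.75), and their part in the Igf1 result was not tested. Hepatocytes are the main source of IGF-1 in liver, and of 13 tested hepatocyte markers 1 rose and 1 fell (summed 3852 to 5754 CPM in vehicle and 4096 to 6234 CPM in CCl4).

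A list of 8 tested genes covered the growth hormone and JAK-STAT5 axis that drives Igf1 in liver, with Il4ra and Stat6 of IL-4 signalling added. Of these 8, 1 rose and none fell. That gene was Stat5a, which went from 9.01 ± 2.10 to 22.6 ± 10.4 CPM (log2 fold change 1.32, SE 0.29, adjusted p = 0.00867 in edgeR). The growth hormone receptor Ghr was low, at 4.65 ± 1.04 and 3.98 ± 0.30 CPM, and the IGF-1 receptor Igf1r was at 4.98 ± 1.72 and 6.62 ± 2.58 CPM, and neither passed (adjusted p in edgeR of 0.617 and 0.503). Igf2r, which clears IGF-2 and carries lysosomal enzymes, rose from 9.48 ± 1.65 to 48.5 ± 9.71 CPM (2.35, SE 0.19, adjusted p = 2.28e-05 in edgeR). Among IGF-binding proteins 2 rose and 3 fell. Igfbp5 and Igfbp6 rose by log2 fold changes of 2.73 (SE 0.56) and 2.44 (SE 0.55) from 1.32 ± 1.22 and 2.06 ± 1.36 CPM. Igfbp5 had 3.61 without vehicle 4, and Igfbp6 had 1.77 without CCl4 3. With limma on log2(FPKM + 0.1) Igfbp5 had 1.13. On log2(FPKM + 1) Igfbp5 had 0.21 and lost its call (adjusted p = 0.053 in limma), and Igfbp6 had 0.93. Igfbp4 fell from 84.4 ± 12.9 to 55.7 ± 4.16 CPM (-0.60, SE 0.14, adjusted p = 0.0159 in edgeR), a call that ended without vehicle 4 or CCl4 1 (adjusted p in edgeR of 0.0653 and 0.0601). The call of Igfbp4 also ended with length-scaled TPM counts (adjusted p = 0.169 in edgeR) and in all 3 limma fits on FPKM (adjusted p in limma of 0.523 to 0.657). Igfbp7 and Igfbp3, the main IGF carrier in blood, were named after their values were seen. Igfbp7 fell from 53.0 ± 12.4 to 19.3 ± 4.51 CPM with no overlap (-1.45, SE 0.21, adjusted p = 0.000788 in edgeR). Igfbp3 fell from 5.28 ± 3.24 to 1.57 ± 0.55 CPM with overlapping libraries (-1.75, SE 0.49, adjusted p = 0.0339 in edgeR), and its call was lost without vehicle 1, 2 or 4, without CCl4 1, 2 or 3 (adjusted p in edgeR of 0.0522 to 0.0955) and without vehicle 2 and CCl4 4 together (0.0683).

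Hbegf, which encodes the membrane-anchored EGF receptor ligand HB-EGF, fell furthest of the 10 genes by edgeR. It stood at 581, 476, 406 and 419 CPM in vehicle 1 to 4 and at 102, 97.2, 149 and 78.9 CPM in CCl4 1 to 4. Every CCl4 library was far below every vehicle library. The means were 470.4 ± 79.5 and 107 ± 30.0 CPM, a log2 fold change of -2.14 (SE 0.21, adjusted p = 8.68e-05 in edgeR). Areg, another ligand of the EGF receptor, fell from 6.13 ± 1.46 to 2.85 ± 0.80 CPM (-1.10, SE 0.28, adjusted p = 0.0197 in edgeR), a call that ended without vehicle 1, CCl4 1 or CCl4 2 (adjusted p in edgeR of 0.0503 to 0.0689) or without vehicle 2 and CCl4 4 together (0.0533).

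HB-EGF is released by metalloproteases of the ADAM family. Adam17, its main sheddase, was at 165 ± 49.9 and 262 ± 45.2 CPM, and Adam10 at 171 ± 40.2 and 239 ± 12.2 CPM. In both, every CCl4 library was above every vehicle library, yet neither passed the test (adjusted p in edgeR of 0.0796 and 0.0984). Adam17 passed in 4 of 20 other settings, among them DESeq2 (0.0285), no filter on low counts (adjusted p = 0.0419 in edgeR) and without vehicle 2 and CCl4 4 together (adjusted p = 0.0313 in edgeR), and Adam10 in 1, DESeq2 (0.0421). Rhbdf2, which carries ADAM17 to the cell surface, was at 66.2 ± 18.03 and 77.8 ± 11.4 CPM (adjusted p = 0.515 in edgeR). Adam8, a metalloprotease of activated myeloid cells, rose from 33.2 ± 15.9 to 476 ± 161 CPM (log2 fold change 3.84, SE 0.36, adjusted p = 5.98e-05 in edgeR). Cd9, a tetraspanin that binds membrane-anchored HB-EGF, rose from 68.2 ± 29.2 to 451 ± 187 CPM (2.73, SE 0.37, adjusted p = 0.000515 in edgeR). The receptor Egfr was low at 2.87 ± 0.97 and 3.15 ± 1.55 CPM and missed the threshold (adjusted p = 0.864 in edgeR), and Erbb4 was below the filter on low counts. Erbb2, a partner of both receptors, fell from 3.28 ± 2.05 to 0.637 ± 0.41 CPM (-2.35, SE 0.71, adjusted p = 0.045 in edgeR), a call lost without vehicle 1, 3 or 4 and without CCl4 1, 2 or 3 (adjusted p in edgeR of 0.0686 to 0.13).

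None of the 3 PDGF genes passed the test. Pdgfa, whose product acts on the alpha receptor, stood at 7.13, 11.3, 5.74 and 5.44 CPM in vehicle 1 to 4 and at 15.7, 9.94, 13.0 and 10.9 CPM in CCl4 1 to 4. In CPM the groups overlapped through vehicle 2, which was above CCl4 2 and CCl4 4. Per length they narrowly did not overlap, with vehicle at 6.80 to 12.91 TPM and CCl4 at 12.97 to 17.27 TPM. In deposited FPKM the ranges were 0.73 to 1.43 and 1.44 to 1.84. The log2 fold change of Pdgfa was 0.74 (SE 0.25, adjusted p = 0.0732 in edgeR). Without vehicle 2 it was 1.02 (adjusted p = 0.00669 in edgeR) and without vehicle 2 and CCl4 4 together 1.07 (adjusted p = 0.00909 in edgeR). Pdgfb, which acts on both PDGF receptors, averaged 16.3 ± 2.34 and 18.5 ± 4.09 CPM (log2 fold change 0.18, SE 0.19, adjusted p = 0.599 in edgeR). Pdgfc, whose product is cut extracellularly before it binds, averaged 49.4 ± 11.8 and 39.5 ± 13.1 CPM (-0.32, SE 0.24, adjusted p = 0.438 in edgeR). In Pdgfb the highest library was CCl4 2 (23.7 CPM), and in Pdgfc it was vehicle 3 (59.5 CPM).

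The receptors of PDGF, which mark mesenchymal cells, were scarce in the sorted cells. Pdgfra was at 4.71 ± 1.79 and 3.20 ± 0.45 CPM and Pdgfrb at 2.65 ± 1.89 and 3.61 ± 0.85 CPM, and neither passed (adjusted p in edgeR of 0.292 and 0.558). Platelets are another source of PDGF, and of 6 tested platelet markers none rose and 1 fell, with summed levels of 84.4 to 206 CPM in vehicle and 32.8 to 96.8 CPM in CCl4.

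Gdf3 had the largest change of the 10 genes by edgeR, although with limma on log2(FPKM + 1) its 1.70 was smaller than the 1.92 of Vegfa and the -2.11 of Hbegf. GDF3 is best known from embryonic stem cells and fat-tissue macrophages. It stood at 2.04, 0.743, 2.57 and 1.88 CPM in vehicle 1 to 4 and at 53.9, 33.9, 30.5 and 39.6 CPM in CCl4 1 to 4. It was low in all vehicle libraries, with a lowest count of 16.2 in vehicle 2, and every CCl4 library lay far above them. The means were 1.81 ± 0.77 and 39.5 ± 10.4 CPM, a log2 fold change of 4.43 (SE 0.32, adjusted p = 1.65e-05 in edgeR; chr6:122605403-122610087, minus strand).

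Gdf15, a stress-induced hormone that lowers appetite, was abundant in both groups and did not pass the test. It stood at 184, 206, 206.8 and 137 CPM in vehicle 1 to 4 and at 107, 234, 174 and 98.7 CPM in CCl4 1 to 4. CCl4 2 was the highest of all libraries and CCl4 4 the lowest. The log2 fold change was -0.26 (SE 0.26, adjusted p = 0.595 in edgeR). Gfral, the receptor of GDF15, was below the filter on low counts.

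Of 14 tested genes of stress responses known to induce Gdf15, 2 rose and 2 fell, with a median log2 fold change of -0.05. The list mixes regulators with targets of these responses, such as Cdkn1a, so the counts do not describe upstream genes alone. Cdkn1a, a p53 target that halts the cell cycle, rose from 359 ± 96.5 to 704 ± 152 CPM (log2 fold change 0.97, SE 0.22, adjusted p = 0.0121 in edgeR). Egr1, an immediate early transcription factor, fell from 413 ± 128 to 147 ± 43.9 CPM (-1.49, SE 0.26, adjusted p = 0.00272 in edgeR). The integrated stress response factors Atf4 (53.0 ± 7.01 and 38.1 ± 9.59 CPM) and Ddit3 (40.6 ± 3.57 and 31.9 ± 5.69 CPM) missed the threshold (adjusted p in edgeR of 0.115 and 0.154). Atf4 passed as lower with scaling by library size alone (-0.63, adjusted p = 0.0251 in edgeR) and with upper-quartile scaling (-0.59, adjusted p = 0.0468 in edgeR). Asns, which makes asparagine, and Eif2ak3, the kinase PERK, passed narrowly as higher (1.32, adjusted p = 0.0352 in edgeR) and lower (-0.60, adjusted p = 0.0481 in edgeR). Asns lost its call without vehicle 1, 3 or 4 and without CCl4 1 or 3 (adjusted p in edgeR of 0.0624 to 0.0966), and Eif2ak3 without vehicle 1, 3 or 4 and without CCl4 1, 2 or 3 (adjusted p in edgeR of 0.0985 to 0.166).

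**Figure D2:**
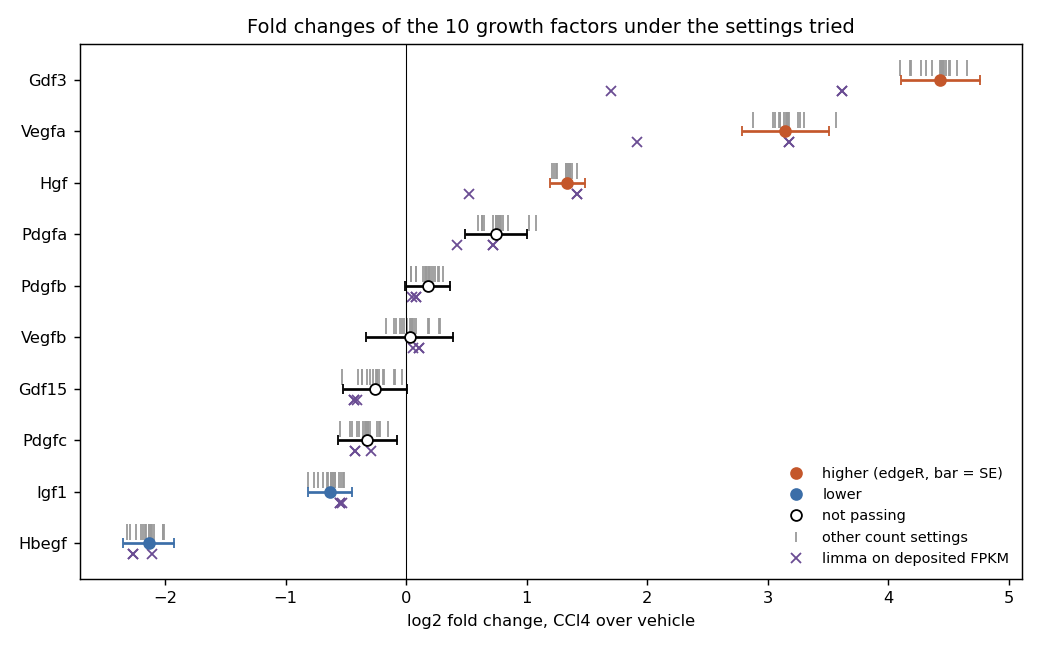
Log2 fold change of the 10 growth factors, CCl4 over vehicle (horizontal axis), by edgeR with its SE as a bar; grey ticks are other settings on counts and crosses are limma on the deposited FPKM. Gdf3, Vegfa and Hgf stay to the right of 0 and Hbegf and Igf1 to the left under every setting drawn, while the values of Vegfb fall on both sides of 0.

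Across the 7 lists of ligands, receptors, processing proteins and response genes, 25 of 132 tested genes rose and 14 fell. Over all 15212 genes tested, 8.93% were higher and 6.26% lower, and the counts per list, here and elsewhere, are to be read beside these shares. Among 14 other ligands of the same families 1 rose and 2 fell (median log2 fold change 0.01), with Gdf2, which encodes BMP9, falling from 11.4 ± 6.06 to 2.24 ± 1.45 CPM (-2.35, SE 0.51, adjusted p = 0.00879 in edgeR). Among 21 receptors and co-receptors 4 rose and 4 fell (median 0.22). Among 30 binding proteins, proteases and inhibitors 9 rose and 3 fell (median 0.43). The largest change there was in Sdc1, the heparan sulfate proteoglycan syndecan 1, which went from 2.10 ± 0.85 to 165 ± 119 CPM (6.29, SE 0.59, adjusted p = 5.98e-05 in edgeR). Without vehicle 1, vehicle 4, CCl4 1 or CCl4 2, 9 genes of the lists fell in place of 14.

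**Figure D3:**
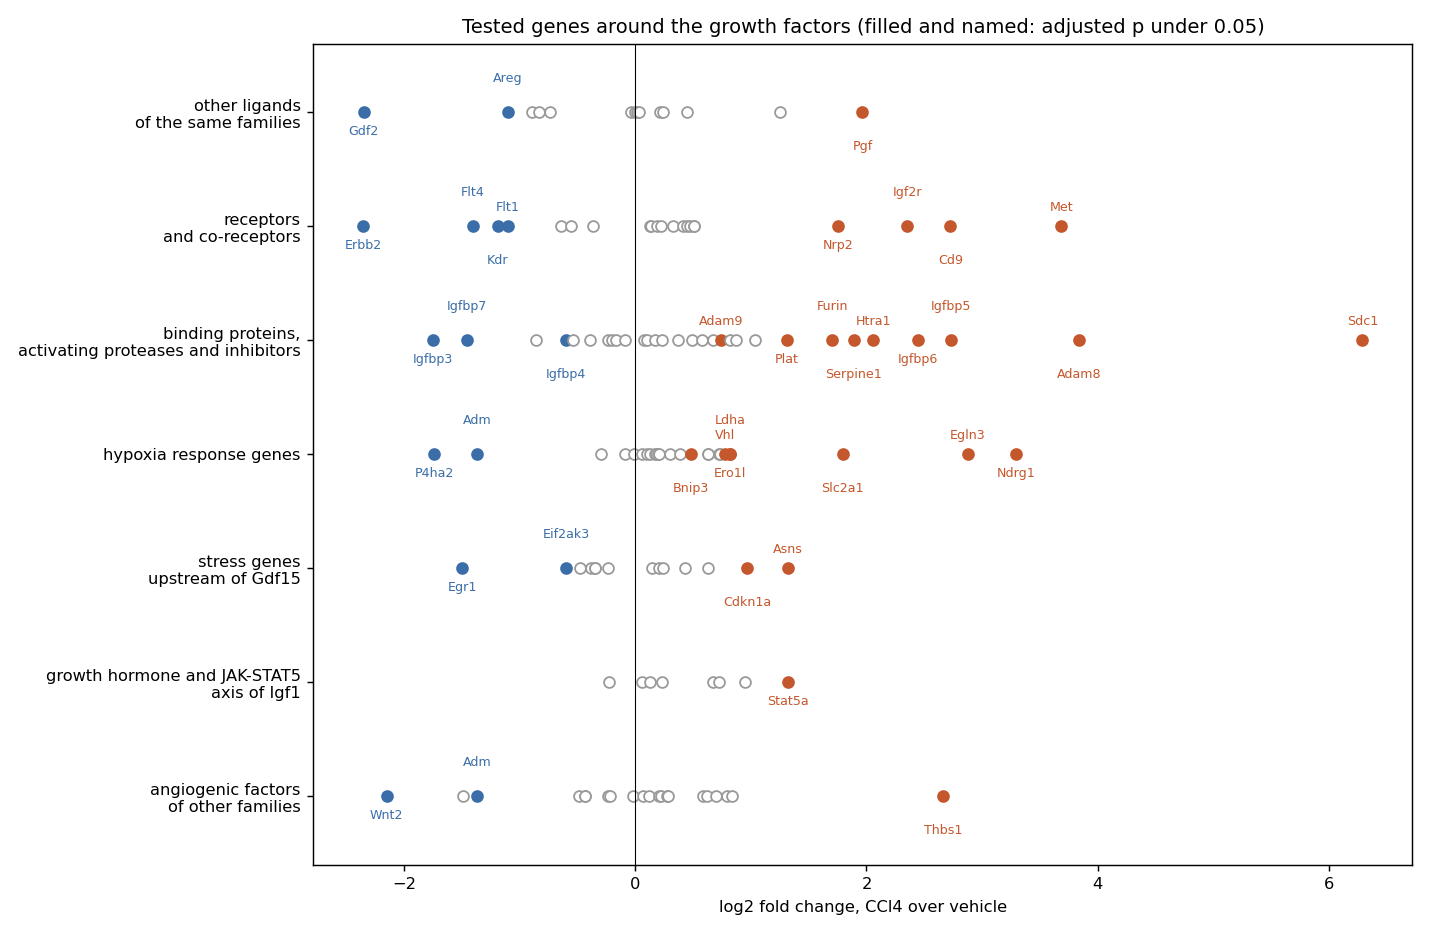
Log2 fold change, CCl4 over vehicle (horizontal axis), of each tested gene of the 7 lists (vertical axis); filled and named points passed edgeR's test (orange higher, blue lower) and open points did not. The receptors split into 4 higher and 4 lower genes, and Sdc1, at 6.29, lies farthest to the right. The rows named for Gdf15 stress genes and for the Igf1 axis also hold genes outside those names.

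TPM, transcript abundances that account for length, allow the members to be ranked within a library. In vehicle Igf1 (369 ± 15.9 TPM), Hbegf (268 ± 32.8) and Gdf15 (186 ± 28.8) stood in that order with no overlap between neighbours, and Pdgfc followed at 22.7 ± 5.87. Pdgfa (8.66 ± 2.86), Pdgfb (7.90 ± 1.29) and Hgf (6.98 ± 1.26) overlapped each other. Vegfa (4.12 ± 2.39) overlapped Hgf, spanned the range of Vegfb (2.59 ± 0.56) and overlapped Gdf3 (1.55 ± 0.42), the lowest. In CCl4 Igf1 (252 ± 66.0) overlapped Gdf15 (152 ± 61.2), and Hbegf came next at 58.96 ± 11.2. Vegfa followed at 39.5 ± 9.31 and overlapped Gdf3 (26.3 ± 7.40). Gdf3 in turn overlapped Pdgfc (17.8 ± 5.99) and Hgf (17.2 ± 1.82), and Pdgfa (14.7 ± 2.04) overlapped both of these. Pdgfb (8.62 ± 1.72) and Vegfb (2.91 ± 1.33) were last. By the deposited FPKM, Hgf was at rank 9 in both groups.

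The sum of the 10 genes was 877 ± 38.1 TPM in vehicle and 591 ± 129 TPM in CCl4, with no overlap. Igf1 made up 42.1% ± 2.18 of that sum in vehicle and 42.4% ± 1.74 in CCl4, whereas Hbegf made up 30.5% ± 3.45 and 10.3% ± 2.64 and Vegfa 0.470% ± 0.27 and 6.91% ± 2.19. Ratios within a library do not depend on scaling between libraries. The log2 ratio of Hbegf to Vegfa was 5.47 to 7.55 in vehicle and 0.13 to 1.55 in CCl4. The ratio of Vegfa to Vegfb was -0.95 to 1.73 and 3.17 to 4.55, that of Hgf to Igf1 -6.12 to -5.40 and -4.39 to -3.48, and that of Gdf3 to Gdf15 -7.72 to -6.37 and -3.42 to -1.59. These 4 ratios did not overlap between the groups, while those of Pdgfa to Pdgfb and of Pdgfc to Pdgfb did.

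**Figure D4:**
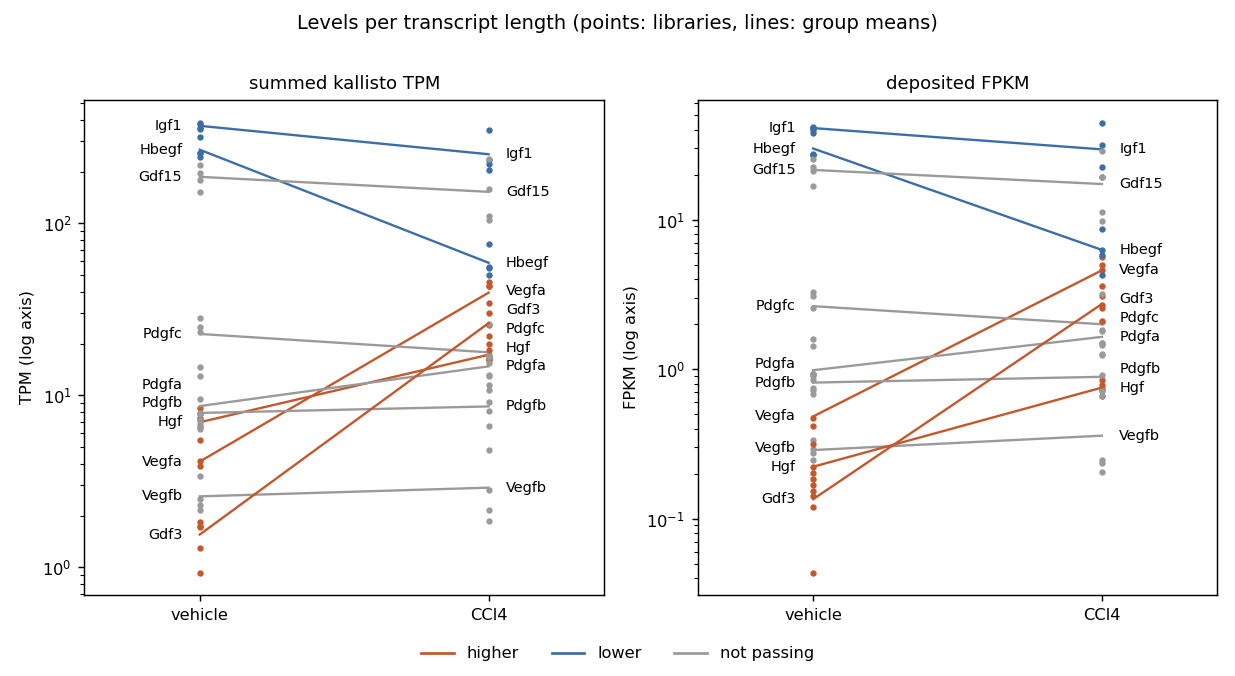
Level of each growth factor per transcript length (left, summed TPM; right, deposited FPKM; logarithmic vertical axes); points are libraries and lines join the group means, coloured by the edgeR call on counts. Hbegf falls from 268 to 58.96 TPM while Vegfa rises from 4.12 to 39.5 TPM and Gdf3 from 1.55 to 26.3 TPM.

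The share of the gene's TPM was compared by exact permutation tests for 27 transcripts that made up at least 10% of their gene in a group. The smallest p that 4 against 4 can give is 0.0286, so 16 of the 27 would have had to reach it for any to pass at an adjusted p of 0.05, and the absence of calls (lowest adjusted p = 0.257) says little. The smallest p was reached by 3 transcripts: Hgf-201, with 27.6% ± 5.79 of Hgf in vehicle and 40.0% ± 2.34 in CCl4, Hgf-204 (24.0% ± 3.11 and 17.99% ± 4.54) and Igf1-206 (22.5% ± 2.55 and 17.7% ± 2.38). Transcripts annotated with a retained intron or no coding sequence made up 39.7% ± 5.67 of Hgf TPM in vehicle and 30.5% ± 2.01 in CCl4.

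Transcripts were also grouped by whether they hold a given exon, for 6 exons that include the 3 printed above, a grouping made after single transcripts had been seen. The Vegfa exon of the long forms was in 61.6, 47.2, 66.8 and 42.1% of the grouped Vegfa TPM in vehicle 1 to 4 and in 50.8, 45.3, 47.7 and 64.9% in CCl4 1 to 4. The rise of Vegfa thus came with overlapping shares of long forms (means 54.4% and 52.2%, two-sided exact permutation p = 0.886, adjusted 0.943 over 6 exons). The Igf1 exon of the E peptide was in 32.5, 33.9, 33.8 and 32.1% of grouped Igf1 TPM in vehicle and in 28.4, 34.2, 27.7 and 27.6% in CCl4. CCl4 2 was as high as vehicle and the other CCl4 libraries were lower (two-sided exact permutation p = 0.143, adjusted 0.857), while by estimated counts the mean share was 1.37 percentage points higher in CCl4. The exon of the long, matrix-binding form of Pdgfa was in 21.7% ± 8.47 and 19.9% ± 3.14 of grouped Pdgfa TPM (two-sided exact permutation p = 0.743). The downstream first coding exon of Igf1 was in 74.9% ± 2.20 and 74.6% ± 2.34 of grouped Igf1 TPM, and the upstream first exon of Gdf15 56.6% ± 3.43 and 56.1% ± 7.38 of grouped Gdf15 TPM (two-sided exact permutation p = 0.743 and 0.943).

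Most Pdgfc signal was assigned to models that are not annotated as coding. Transcripts with the exon that holds the stop codon made up 87.1% ± 1.63 of Pdgfc TPM in vehicle and 87.8% ± 2.27 in CCl4 (two-sided exact permutation p = 0.657). Their main model, Pdgfc-202, encodes 57 residues before the stop, against 345 in the coding model Pdgfc-201, and is annotated as a target of nonsense-mediated decay. The 2 models also differ in the first exon (383 and 1139 bases), so reads outside the exon shown can set the assignment. Igf1, Pdgfa, Pdgfb and Pdgfc overlap annotated antisense genes, and without strand marking reads of the 2 strands cannot be told apart.

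**Figure D5:**
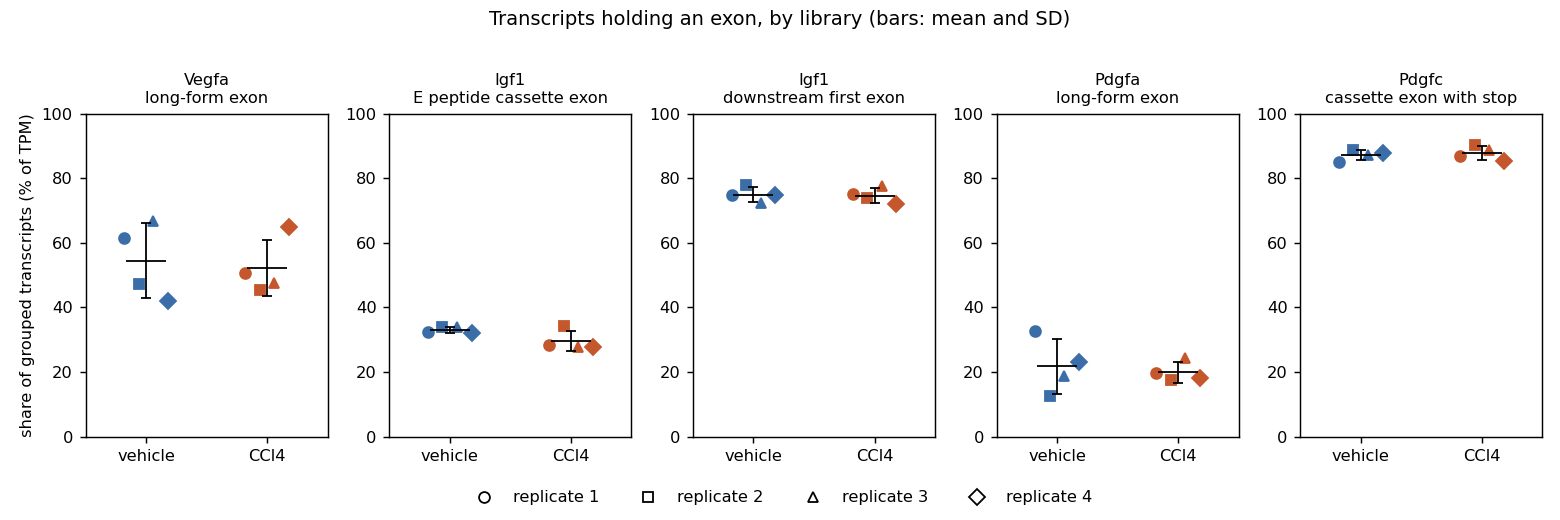
Share of the grouped transcripts' TPM (percent, vertical axis) that holds a given exon, by library, for Vegfa, Igf1, Pdgfa and Pdgfc; lines are means and bars are SD, n = 4. The shares of vehicle and CCl4 overlap in every panel, from 21.7% and 19.9% for the Pdgfa long form to 87.1% and 87.8% for the Pdgfc exon with a stop.

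For the 5 members that passed, the genes most alike in pattern were ranked by Pearson correlation of log2 CPM over the 8 libraries among 7995 genes with at least 10 CPM. All 8 points share the group contrast and the depth of their library, so these values describe likeness only. For each member many further genes were almost as highly correlated, so the genes named are not particular to it. Hgf was closest to Sc5d, a sterol synthesis enzyme, and Gpnmb, a glycoprotein of lipid-laden macrophages (r = 0.988 for both), and most opposite to Ppp1r9a (-0.993). Vegfa was closest to Dennd4a (0.985) and Tnip3, an inhibitor of NF-kappaB signalling (0.985), and most opposite to Fam69a (-0.977). Gdf3 was closest to Tgfbr1, a TGF-beta receptor (0.991), and Galc, a lysosomal galactosidase (0.990), and most opposite to Ebna1bp2 (-0.997). Hbegf was closest to Jcad (0.997) and Scimp, an immune adaptor (0.994), and most opposite to Ccr2, the monocyte chemokine receptor (-0.984). Igf1 was closest to the cytokine Il18 (0.988) and Clec1b, a lectin of Kupffer cells (0.985), and most opposite to Vkorc1l1 (-0.971).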

How the data were processed

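RNA of sorted liver macrophages was measured in 4 vehicle and 4 CCl4 libraries. Per the labels' protocols, RNA was amplified with SMART-Seq HT and NEBNext Ultra II libraries were made, with no step named that marks the strand. The submitters' processing notes name kallisto, edgeR, limma and the build mm10, with no versions given in the sources used here. The authors deposited kallisto estimated counts per transcript, which are not normalized between libraries, and TPM, which are scaled to a fixed total within a library. The authors also deposited a table of FPKM per gene; the sources used here do not say how it was made.

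Of 117494 transcripts, 116405 matched GENCODE M21 by identifier, 13 of them with the version as well; the 1089 unmatched held up to 0.313% of a library. All 48 transcripts of the members had the length of their M21 model. Estimated counts were summed over 35906 genes, rounded, and filtered with filterByExpr (minimum count 10, minimum total 15), which left 15212 genes. Groups came from the treatment label. They were compared by edgeR 4.0.16 in R 4.3.3 (quasi-likelihood test, TMM, group as the only term, two-sided, Benjamini-Hochberg over all genes tested, threshold 0.05). An SE is the log2 fold change divided by the square root of F. On simulated data with 200 changed among 14887 genes, the test found 63% of the 1-unit and 92% of the 2-unit log2 changes, with 4.32% false calls. The simulated spread followed the trend with level alone, and the changed genes were above 1 CPM. Rates in the real libraries, where more genes changed, may differ. Shares of transcripts were compared by exact permutation tests. Summed marker levels are CPM with TMM factors, on the same scale as the levels of single genes. Libraries of a group differed by a chi-square of at least 30.6 per gene, so none was counted as a copy.

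Named genes are the 10 members, at most 4 genes per list with the largest change past the threshold, a fixed set of receptors, proteases and regulators, and Flt4, Igfbp3 and Igfbp7, added after their values were seen; for likeness, the 2 closest and 2 most opposite genes per member were computed. The members and lists were chosen with earlier results of these data known. Alternatives were other scalings, DESeq2 1.42.0, other filters, length-scaled TPM counts, limma 3.58.1 on log2(FPKM + 0.1) and log2(FPKM + 1), a replicate block and leaving out libraries. The labels do not say that the numbers pair the mice, so the numbers were not taken as pairs. Same-numbered libraries did not deviate together, which cannot show that pairing is absent.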

Additional observations from a re-analysis of the deposited data

Results flagged for a closer look

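In 32 groups of 4 libraries tested for a library far from the rest, 2 had one; chance gives about 1 in 20. Vegfb was at 2.97 CPM in vehicle 2 and at 1.64 to 1.78 CPM in the other vehicle libraries. The share of Igf1 TPM with the E peptide exon was 34.2% in CCl4 2 and 27.6 to 28.4% in the other CCl4 libraries.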

How the results depend on the processing

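The calls of Hgf, Vegfa, Hbegf and Gdf3 held under all 20 settings tried, with log2 fold changes of 0.52 to 1.42, 1.92 to 3.57, -2.32 to -2.01 and 1.70 to 4.65. The lowest for the 3 rising genes came from log2(FPKM + 1), where the pseudocount shrinks low genes. Igf1 passed under 8 of 20 settings and kept its direction in all 20. Members called lower numbered 1 in place of 2 with no filter, with length-scaled TPM counts, under all 3 limma fits on FPKM, and without vehicle 2 and CCl4 4 together, and 1 to 2 with 1 library left out; list genes called lower numbered 9 to 14 with 1 library left out. Pdgfa passed under 4 of 20 settings: DESeq2 (adjusted p = 0.0383), no filter (adjusted p = 0.0466 in edgeR), without vehicle 2 (0.00669) and without vehicle 2 and CCl4 4 (0.00909).

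Among named genes, direction reversed only for those that had not passed, except Flt1. Vegfb had -0.10 scaled by library size alone, -0.082 by the upper quartile and -0.16 to 0.27 with 1 library left out. Plau had -0.046 scaled by library size alone and -0.035 to 0.27 with 1 library left out, Hgfac 0.039 with limma on unfiltered FPKM and -0.18 to 0.020, and Egfr -0.016 without vehicle 2 and CCl4 4 and -0.27 to 0.39. Flt1 had 0.093 with limma on log2(FPKM + 1). Several calls held in only part of the settings: Flt1 in 16 of 20, Areg 15, Igfbp4 14, Kdr 13, Cd14 10 and Igfbp3 9. Asns and Eif2ak3 passed in 7 of 20 each, Pgf in 11 of 17 and Erbb2 in 8 of 17. The difference in the log2 ratio of Hgf to Igf1 was 1.90 by TPM and 2.35 by FPKM. The median over all genes was -0.03 under TMM, -0.16 scaled by library size alone and -0.12 by the upper quartile. Causes were not tested.

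With the replicate number as a block, 3 members were higher and 2 lower, as without it, and 28 list genes were higher and 11 lower in place of 25 and 14. Same-numbered libraries correlated at 0.02, -0.24, 0.04 and -0.17 in their deviations. Differently numbered ones ranged from -0.46 (vehicle 1 with CCl4 4) to 0.47 (vehicle 2 with CCl4 4). These values give no sign of pairing but cannot show that it is absent. With 31 to 72 counts per library the precision for Vegfb was limited (SE 0.36).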

Other observations

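Of 21 tested angiogenic factors of other families, 1 rose and 2 fell, with a median log2 fold change of 0.12. Thbs1, the vessel-growth inhibitor thrombospondin 1, rose from 23.8 ± 12.4 to 151 ± 44.5 CPM (n = 4 per group; log2 fold change 2.66, SE 0.34, adjusted p = 0.000361 in edgeR). Wnt2, an angiocrine factor of sinusoidal endothelium, fell from 24.3 ± 7.55 to 5.47 ± 1.52 CPM (-2.15, SE 0.27, adjusted p = 0.000297 in edgeR). Adm, the vasodilator adrenomedullin, fell from 52.6 ± 3.98 to 20.3 ± 7.41 CPM (-1.37, SE 0.24, adjusted p = 0.00261 in edgeR), with 48.1 to 56.9 CPM in vehicle and 11.03 to 26.9 CPM in CCl4. Adm is in the hypoxia list as well, where 7 of 25 genes rose, and Wnt2 is also one of the endothelial markers.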
